A study of Mus musculus with 12 samples.

Results

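Called binding sites of 2 histone demethylases were compared at promoters of mouse leukaemic granulocyte-macrophage progenitors: Jmjd2c promoter peaks that each hold several separate Jmjd2a peaks. A Jmjd2c peak was taken when it lay within 1000 bp of a transcription start site and overlapped at least 2 peaks of the Jmjd2a list by 1 bp or more each. This held for 463 of 9053 Jmjd2c promoter peaks (5.11%) and of 10521 Jmjd2c peaks in all. They are called multi-peak promoters here. They were chosen by the measured positions of the called Jmjd2a and Jmjd2c peaks, so the number of Jmjd2a peaks, and the peak widths that bear on it, are given as a description.

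All 12 libraries came from MLL-AF9-transformed L-GMP lines of C57BL/6 background with the genotype Jmjd2a/b/cf/f;Rosa26::CreERT2, taken from leukaemic mice and kept in 20% serum with 10 ng/ml interleukin-3. Controls carry the same floxed alleles and the same tamoxifen-activated Cre as the treated cells, which received 500 nM 4-hydroxytamoxifen (OHT) during 96 h. Chromatin immunoprecipitation used an antibody to Jmjd2a or to Jmjd2c (1 control and 1 OHT library each), or to H3K9me3 or H3K36me3 (2 control and 2 OHT libraries each). The files used here list positions of Jmjd2a peaks, Jmjd2c peaks and start sites bound by both. They hold no value per library, so neither the OHT effect nor the marks could be compared, depth is unknown, and the cell type could not be checked against expression of its markers. The sources used here do not give which libraries entered each list. Intervals below are exact 95% binomial intervals over peaks. They cover counting error only, peaks are not replicates, and no difference below was tested.

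Jmjd2a (Kdm4a) and Jmjd2c (Kdm4c) are JmjC-domain enzymes that take methyl groups off lysine 9 and lysine 36 of histone H3, marks of silent chromatin and of transcribed gene bodies. Both also carry Tudor domains that bind trimethylated lysine 4 of histone H3, a mark of the nucleosomes that flank active start sites. At such promoters the stretch just before the start site is commonly poor in nucleosomes and holds the binding sites of transcription factors.

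The arrangement can be read on the sequence itself. Each run below is a promoter from 250 bases before the start site to the start base, 5′ to 3′ (RefSeq, GRCm38.p6, whose chromosomes are those of mm10). Capitals mark the bases that lie in the gap between the Jmjd2a peaks, and lower case marks bases under a Jmjd2a peak. All bases shown lie under the Jmjd2c peak. The first 4 have a gap that ends before the start, and the last 2 have a gap that runs over it. The runs shown are the promoters of Snrpc, a component of the U1 small nuclear ribonucleoprotein (chr17:27839837-27840087, plus strand), of Rab4b, a vesicle-transport GTPase (chr7:27178883-27179133, minus strand), of the zinc finger gene Zfp961 (chr8:71950816-71951066, plus strand), of Zswim6 (chr13:107890064-107890314, minus strand), of Mphosph8, a reader of lysine 9 methylation (chr14:56667998-56668248, plus strand), and of the zinc finger gene Zbtb24 (chr10:41450108-41450358, plus strand).
Snrpc: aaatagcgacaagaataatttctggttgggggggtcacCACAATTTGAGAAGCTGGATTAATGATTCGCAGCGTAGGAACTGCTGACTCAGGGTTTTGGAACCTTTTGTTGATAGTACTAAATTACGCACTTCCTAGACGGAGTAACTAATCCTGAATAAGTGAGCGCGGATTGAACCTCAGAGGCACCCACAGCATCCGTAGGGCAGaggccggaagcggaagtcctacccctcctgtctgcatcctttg
Rab4b: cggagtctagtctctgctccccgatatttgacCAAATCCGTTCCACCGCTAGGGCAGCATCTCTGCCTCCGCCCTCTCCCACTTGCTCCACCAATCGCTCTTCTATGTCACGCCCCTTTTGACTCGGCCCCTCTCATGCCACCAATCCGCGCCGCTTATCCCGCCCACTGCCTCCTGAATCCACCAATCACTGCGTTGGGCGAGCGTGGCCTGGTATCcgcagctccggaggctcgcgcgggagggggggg
Zfp961: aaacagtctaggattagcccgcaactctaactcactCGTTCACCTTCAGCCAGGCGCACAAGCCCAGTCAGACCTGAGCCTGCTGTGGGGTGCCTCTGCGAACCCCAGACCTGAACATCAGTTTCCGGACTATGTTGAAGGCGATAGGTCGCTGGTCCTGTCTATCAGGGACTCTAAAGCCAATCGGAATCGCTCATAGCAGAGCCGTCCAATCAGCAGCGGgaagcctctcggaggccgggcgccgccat
Zswim6: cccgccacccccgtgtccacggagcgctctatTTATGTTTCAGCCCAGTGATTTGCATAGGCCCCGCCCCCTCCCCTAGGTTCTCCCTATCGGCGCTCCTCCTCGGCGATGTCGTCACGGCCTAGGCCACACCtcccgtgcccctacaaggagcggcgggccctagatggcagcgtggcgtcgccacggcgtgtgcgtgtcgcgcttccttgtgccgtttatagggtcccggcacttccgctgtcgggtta
Mphosph8: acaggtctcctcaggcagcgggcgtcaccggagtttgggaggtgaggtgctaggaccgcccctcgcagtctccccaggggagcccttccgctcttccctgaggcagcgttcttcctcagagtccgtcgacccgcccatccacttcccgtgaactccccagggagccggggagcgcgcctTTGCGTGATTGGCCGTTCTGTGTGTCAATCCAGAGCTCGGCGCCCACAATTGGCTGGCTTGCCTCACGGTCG
Zbtb24: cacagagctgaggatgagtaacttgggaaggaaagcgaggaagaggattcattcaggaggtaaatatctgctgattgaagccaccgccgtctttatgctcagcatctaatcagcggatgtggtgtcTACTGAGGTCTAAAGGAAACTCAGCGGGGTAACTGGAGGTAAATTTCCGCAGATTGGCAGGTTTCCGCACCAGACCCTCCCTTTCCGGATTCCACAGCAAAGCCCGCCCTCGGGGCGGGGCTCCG

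In Snrpc the gap ran from 212 to 43 bp before the start, in Rab4b from 218 to 33 bp, in Zfp961 from 214 to 29 bp and in Zswim6 from 218 to 118 bp. In these 4 promoters the start base was back under a Jmjd2a peak. In Mphosph8 the gap opened 71 bp before the start and closed 53 bp after it, and in Zbtb24 it opened 124 bp before and closed 41 bp after. Matches to CCAAT on either strand were counted on the sequences shown, which end at the start base. The gap of Rab4b holds 3 and that of Zfp961 2, whereas those of Snrpc and Zswim6 hold none. In Mphosph8 and Zbtb24 the part of the gap up to the start base holds 2 and 1.

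Of the 463 multi-peak promoters, 452 held 2 Jmjd2a peaks and 11 held 3, and no Jmjd2a peak was counted in more than 1 of them, which makes 937 Jmjd2a peaks. Among the 5577 Jmjd2c promoter peaks that met at least 1 Jmjd2a peak they make up 8.30% (7.59 to 9.06). A start site lay inside 457 of them. The other 6 lay 81 bp (Polr1b), 98 bp (Htr2a), 301 bp (Cdc42bpa), 314 bp (Rfx5), 528 bp (Zcchc14) and 906 bp (Mir17) from the nearest start. Just outside the 1000 bp limit, the nearest Jmjd2c peaks with 2 Jmjd2a peaks were 1654 bp from Nr3c1 and 1824 bp from Zfp36l1. Beyond 1000 bp, 20 of 1468 Jmjd2c peaks (1.36%) met several Jmjd2a peaks, or 3.39% (2.08 to 5.19) of the 590 that met any.

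Multi-peak promoters were broad. Their Jmjd2c peaks had a median width of 1850 bp (quartiles 1600.5 and 2186, range 800 to 4622), against 1394 bp (1104 and 1720) where 1 Jmjd2a peak was held and 1243.5 bp (879 and 1646) where none was. A broader peak has more room for several peaks, so this difference bears on the rule itself. Among peaks with any Jmjd2a, several were held by 5 of 934 below 1000 bp (0.535%), by 78 of 2201 from 1000 to 1499 bp (3.54%), by 214 of 1641 from 1500 to 1999 bp (13.0%), by 102 of 583 from 2000 to 2499 bp (17.5%) and by 64 of 218 of 2500 bp or more (29.4%). The single Jmjd2a peaks elsewhere had a median width of 844 bp (579 and 1138). Those in multi-peak promoters were narrower singly, at 592 bp (438 and 779), but their summed width was 1243 bp (1022 and 1537). Jmjd2a covered a similar part of the Jmjd2c peak, a median of 65.7% (54.3 and 75.9) with several peaks and 62.5% (40.4 and 82.0) with 1.

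The Jmjd2a peaks sat within the outline of Jmjd2c more often than across its edge. Of the 937 peaks, 701 (74.8%, 71.9 to 77.6) lay wholly inside, and 253 of the 463 promoters (54.6%) held all of theirs. The rule asks for several Jmjd2a peaks in 1 Jmjd2c peak, which favours this place. The shares are given as a description, and none was taken for single Jmjd2a peaks. The reach from the first to the last Jmjd2a peak had a median of 1485 bp and exceeded the Jmjd2c peak at 78 promoters (16.8%). Within a promoter the narrowest Jmjd2a peak was a median of 0.657 times as wide as the widest (quartiles 0.499 and 0.837).

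**Figure D1:**
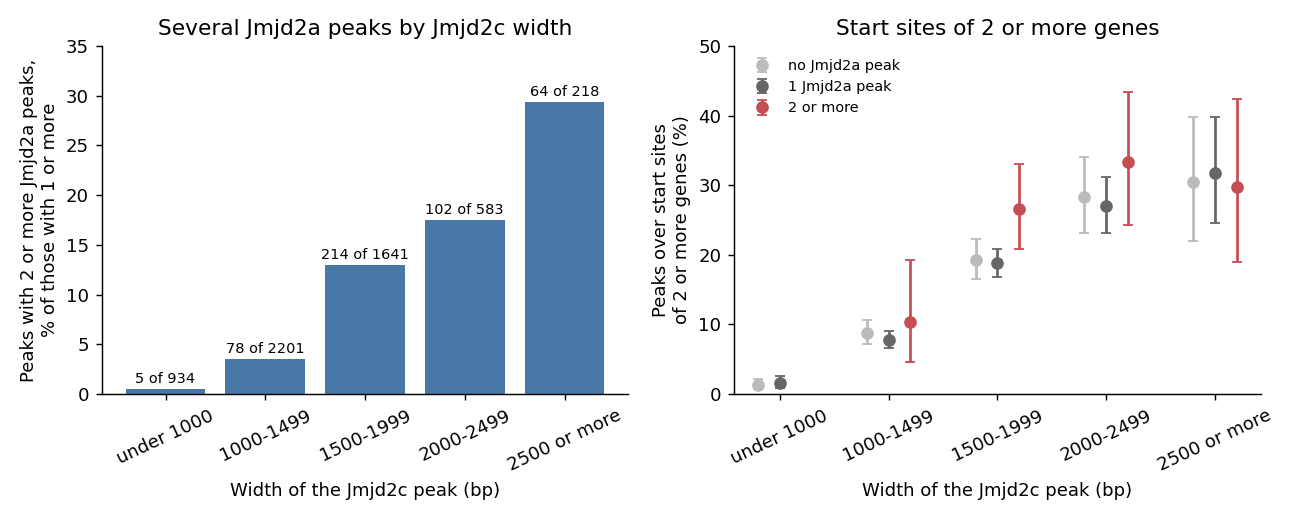
Left, the share of Jmjd2c promoter peaks with 2 or more Jmjd2a peaks among those with at least 1, by width of the Jmjd2c peak in bp (bars; counts above them), which runs from 0.535% to 29.4%. Right, the share of peaks that cover start sites of 2 or more genes in the same bands for peaks with no, 1 or several Jmjd2a peaks (points, with exact 95% binomial intervals; groups under 50 peaks left out); at 1500 to 1999 bp the share is 26.6% for several and 18.8% for 1.

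The gaps between neighbouring Jmjd2a peaks were short. Over the 474 gaps the median was 182.5 bp (quartiles 139 and 272, range 100 to 2299), and 281 gaps (59.3%, 54.7 to 63.7) were under 200 bp. Counted in classes, 150 gaps were under 150 bp, 131 from there to under 200 bp, 89 to under 300 bp, 57 to under 500 bp, 34 to under 1000 bp and 13 were of 1000 bp or more. The lower end is a property of the lists: no gap in the whole Jmjd2a list or in the whole Jmjd2c list is shorter than 100 bp, so sites closer than that are not listed apart. The sources used here do not say how that distance was set. When Jmjd2a peaks closer than 200 bp were joined first, 190 promoters held several, with a median gap of 312 bp. Joining leaves only gaps of 200 bp or more, so a longer median follows by construction.

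**Figure D2:**
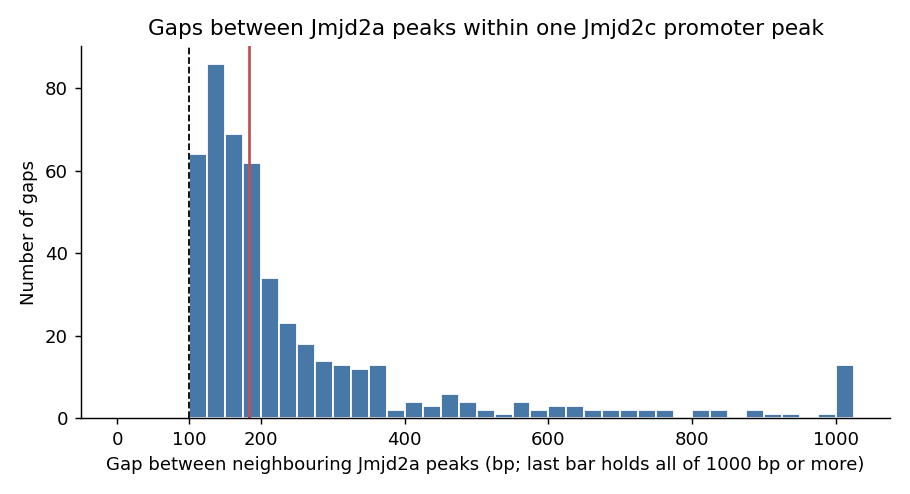
Lengths in bp of the 474 gaps between neighbouring Jmjd2a peaks inside a Jmjd2c promoter peak, in bars of 25 bp, the last bar holding all gaps of 1000 bp or more. The dashed line marks 100 bp, below which no gap is listed, and the solid line the median of 182.5 bp.

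The gap was close to the start site: at multi-peak promoters with a single start and 2 Jmjd2a peaks its centre lay within 250 bp of it in 222 of 318 (69.8%, 64.4 to 74.8). The rule bounds this place, since both Jmjd2a peaks must meet 1 Jmjd2c peak near a start, and the share is given as a description. Starts are counted here as named by the authors, so a promoter called single-start may hold others. A RefSeq promoter window lay at the start of 211 single-start multi-peak promoters. Among 323 multi-peak promoters over exactly 1 start site, that site was under a Jmjd2a peak in 182 (56.3%, 50.7 to 61.8), in a gap between Jmjd2a peaks in 129 (39.9%, 34.6 to 45.5), before all Jmjd2a peaks in 9 and after all of them in 3. Where 1 Jmjd2a peak was held, 3009 of 3979 single start sites (75.6%, 74.3 to 76.9) were under it, 645 (16.2%) had it downstream and 325 (8.17%) had it upstream. Over all multi-peak promoters, whatever their number of starts, 212 of 463 had a start site in a gap (45.8%, 41.2 to 50.4). Gaps made up a median of 12.9% of the stretch from the first to the last Jmjd2a peak.

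In the 318 single-start promoters with 2 Jmjd2a peaks, the centre of the gap was a median of 46 bp upstream of the start, with quartiles of 153 bp upstream and 111 bp downstream. It fell in the 250 bp before the start in 162 (50.9%, 45.3 to 56.6) and in the 250 bp after it in 60 (18.9%, 14.7 to 23.6). A further 23 centres lay 250 to 500 bp upstream, 12 more than 500 bp upstream, 30 lay 250 to 500 bp downstream and 31 more than 500 bp downstream. The gap covered the start itself in 126 promoters (39.6%), ended before it in 119 (37.4%) and began after it in 73 (23.0%). The Jmjd2a peak on the gene side was the wider one in 182 of the 318 (57.2%, 51.6 to 62.7), with a median of 625.5 bp against 563.5 bp on the upstream side.

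Coverage by called peaks traced the same shape. At single-start multi-peak promoters, Jmjd2a peaks covered 80.5% of promoters at 375 bp upstream, 44.6% at 100 bp upstream, 56.3% at the start and 88.9% at 275 bp downstream. Jmjd2c peaks covered 98.1% at 100 bp upstream. Each of these promoters is by choice 1 unbroken Jmjd2c peak over its start, so no such dip could appear in Jmjd2c. With a single Jmjd2a peak, coverage rose from 52.3% at 300 bp upstream to 62.2% at 100 bp upstream and 85.7% at 200 bp downstream, with no dip. Limited to Jmjd2c peaks of 1500 to 1999 bp, coverage at 100 bp upstream was 40.9% (33.0 to 49.3, n = 149) with several Jmjd2a peaks and 63.5% (60.6 to 66.4, n = 1072) with 1. At 400 bp upstream the order was the other way round, 82.6% (75.5 to 88.3) against 53.2% (50.1 to 56.2). A set of promoters whose Jmjd2a call is split must show a dip somewhere, and its place is bounded by the Jmjd2c peak, so these values are a description.

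**Figure D3:**
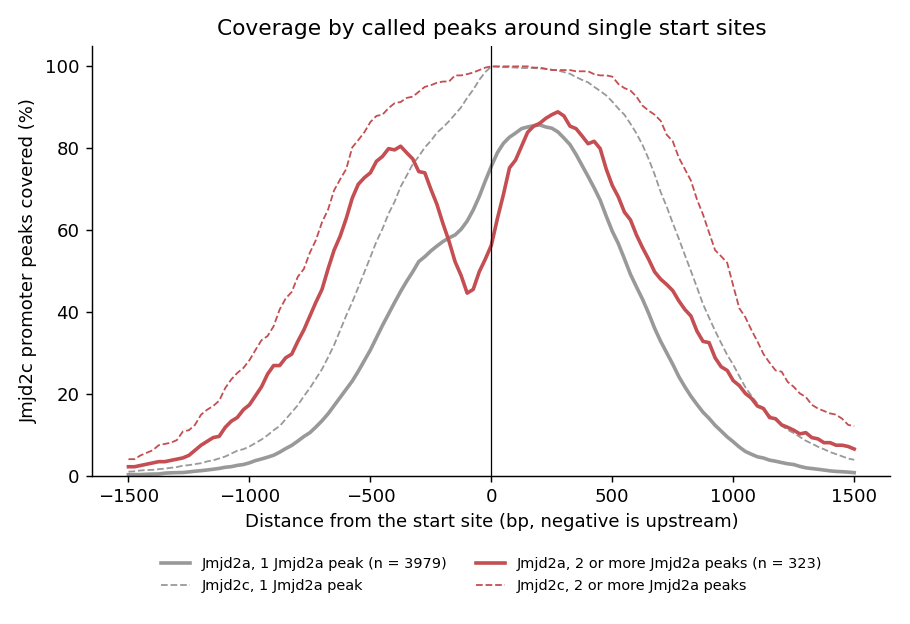
Share of promoters (%) covered by a called peak at each distance in bp from a single start site, negative being upstream, in steps of 25 bp. Solid lines are Jmjd2a and dashed lines Jmjd2c, red for 323 promoters with several Jmjd2a peaks and grey for 3979 with 1; the red solid line falls to 44.6% at 100 bp upstream, between 80.5% and 88.9% on its sides.

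Multi-peak promoters covered start sites of 2 or more genes in 118 of 463 (25.5%, 21.6 to 29.7), against 627 of 5114 (12.3%, 11.4 to 13.2) with 1 Jmjd2a peak and 377 of 3476 (10.8%, 9.83 to 11.9) with none. The share rose with width up to 2499 bp whatever the number of Jmjd2a peaks, and the part of width in the difference was not tested. At 1000 to 1499 bp, it was 10.3% (4.53 to 19.2) with several Jmjd2a peaks, 7.77% (6.67 to 8.99) with 1 and 8.81% (7.25 to 10.6) with none. From 1500 to 1999 bp the shares were 26.6% (20.8 to 33.1), 18.8% (16.8 to 20.9) and 19.3% (16.5 to 22.3), and from 2000 to 2499 bp 33.3% (24.3 to 43.4), 27.0% (23.1 to 31.2) and 28.3% (23.1 to 34.0). At 2500 bp or more the order was lost, with 29.7% (18.9 to 42.4), 31.8% and 30.4%. Start sites on both strands lay in 117 multi-peak promoters (25.3%) and in 585 with 1 Jmjd2a peak (11.4%).

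Divergent gene pairs, transcribed away from each other, made up 90 of the multi-peak promoters with 2 Jmjd2a peaks and 2 start sites, and 9 had starts facing each other. The starts of the divergent pairs were a median of 229 bp apart (quartiles 119 and 452.5, range 11 to 1784). The gap lay between both starts in 29 pairs (32.2%, 22.8 to 42.9), covered 1 start in 37 (41.1%), covered both in 16 (17.8%) and lay outside them in 8 (8.89%). At Cops5 and Cspp1, genes of a COP9 signalosome subunit and of a centrosomal protein, Jmjd2a peaks of 946 and 421 bp were 1700 bp apart and both starts fell between them. At Psma7 and Ss18l1, the former a proteasome subunit, peaks of 807 and 554 bp stood 345 bp apart and again enclosed both starts. At Tmem69 and Gpbp1l1 the peaks of 1050 and 355 bp were 1520 bp apart, and both starts were under Jmjd2a.

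The promoters were rich in CpG. RefSeq windows of 300 bases (250 before to 50 after a start) were found inside 388 multi-peak promoters, 602 windows in all, some of which overlap. Their median observed over expected CpG ratio was 0.858 (quartiles 0.746 and 0.966), and 557 (92.5%) exceeded 0.6. The ratio was 0.827 with 86.0% above 0.6 where 1 Jmjd2a peak was held, 0.805 with 79.6% where none was, and 0.383 with 35.8% over all 32817 windows of the table. Among Jmjd2c peaks of 1500 to 1999 bp the medians were closer, at 0.861, 0.855 and 0.847. The median GC content was 64.3%, 63.3% and 62.0% in that order, against 52.7% over all windows. Windows were found inside 388 of 463 multi-peak promoters, 3967 of 5114 peaks with 1 Jmjd2a peak and 2441 of 3476 with none. Peaks without a window are left out of these values and of the motif shares below.

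Short motifs were searched on both strands of the same windows, and a match is a description of letters, not a site. CCAAT, the CCAAT box bound by the factor NF-Y, was in 44.0% of windows at multi-peak promoters, 37.6% with 1 Jmjd2a peak, 35.2% with none and 37.4% of all windows. GGGCGG, the GC box bound by Sp1, was in 76.2%, 69.9%, 70.6% and 35.6%. CCGGAA, a core of ETS factor sites, was in 34.6%, 34.0%, 32.2% and 14.9%, and GCATGCGC, a core of NRF1 sites, in 7.31%, 6.76%, 5.78% and 2.71%. TATAAA, the TATA box core, was in 3.49%, 4.38%, 5.87% and 13.6%. CACGTG, an E-box, was in 8.47%, 11.4%, 10.0% and 7.15%, TGACGTCA, a cAMP response element, in 3.49%, 4.06%, 3.41% and 1.79%, and AAGATGGC, a core of YY1 sites, in 3.82%, 5.39%, 5.60% and 2.74%. Between 1500 and 1999 bp of Jmjd2c width, CCAAT was in 135 of 297 windows (45.5%) with several Jmjd2a peaks, 601 of 1668 with 1 and 309 of 886 (34.9%) with none, and GGGCGG was in 80.1%, 70.3% and 72.3%.

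Within the multi-peak promoters, 6 of the 8 motifs were denser in the gaps than under the Jmjd2a peaks. The other 2, CACGTG and TATAAA, were less dense. Some windows overlap, so some bases and matches were counted more than once. The order of the rarer motifs rests on few matches. The windows had 64.2% GC and 9.01 CpG per 100 base steps in gap bases, and 64.7% and 9.03 under Jmjd2a. CCAAT occurred 3.82 times per kb of gap (275 matches) and 1.69 times per kb under Jmjd2a (166 matches), GGGCGG 7.93 and 5.14 times, CCGGAA 2.11 and 1.27 times and GCATGCGC 0.597 and 0.244 times. The rarer AAGATGGC had 12 and 12 matches (0.167 and 0.122 per kb), TGACGTCA 9 and 8 (0.125 and 0.0812), CACGTG 17 and 32 (0.236 and 0.325) and TATAAA 8 and 12 (0.111 and 0.122). The part of the distance to the start in these values was not tested. In the stretch from 150 to 50 bp upstream of 211 single-start promoters, with 1 window each, CCAAT occurred 44 times in 10275 gap bases (4.28 per kb) and 16 times in 9449 bases under Jmjd2a (1.69 per kb). There GGGCGG occurred 8.56 and 5.71 times per kb and CCGGAA 2.24 and 0.952 times. The other motifs had too few matches there to order: GCATGCGC 4 and 2, TGACGTCA 2 and 2, CACGTG 2 and 3, TATAAA 1 and 2, and AAGATGGC 0 and 1. Gap bases and covered bases were not matched for position within the stretch.

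The 11 promoters with 3 Jmjd2a peaks differed in layout. At Anp32a, which encodes an acidic nuclear phosphoprotein, the Jmjd2c peak was the widest of all 463 (4622 bp; chromosome 9, 62340380 to 62345001), and Jmjd2a peaks of 450, 721 and 428 bp were spread over it with gaps of 834 and 1367 bp, the start being in the first gap. At Ybx1, the gene of the Y-box protein that binds DNA and RNA, peaks of 480, 350 and 449 bp had gaps of 1050 and 666 bp along a Jmjd2c peak of 3179 bp. At the AP-1 factor gene Jun the Jmjd2a peaks were wider, at 501, 1344 and 644 bp, with gaps of 156 and 454 bp under 3471 bp of Jmjd2c (chromosome 4, 95050065 to 95053535). In all 3 of these genes the start lay in a gap.

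The layout of other sets of 3 varied as well. Yme1l1 and Mastl, a mitochondrial protease and the mitotic Greatwall kinase, shared peaks of 869, 342 and 549 bp with gaps of 114 and 126 bp, and both starts fell in gaps. Poc1b and Galnt4 had gaps of 108 and 192 bp, Cd63 of 202 and 152 bp, Ndufa11 and Vmac of 156 and 162 bp, Mex3b of 158 and 352 bp, and Fam76b and Cep57 of 134 and 471 bp. All starts of Poc1b with Galnt4 and of Fam76b with Cep57 fell in gaps. The start of Mex3b was under a Jmjd2a peak. Ndufa11 and Vmac had 1 start under Jmjd2a and 2 in gaps. Cd63 had 1 start under Jmjd2a and 1 before all of its Jmjd2a peaks. Another such promoter, a Jmjd2c peak of 2764 bp (chromosome 14, 115040002 to 115042765), is 906 bp from the start named for Mir17. Its Jmjd2a peaks spanned 704, 488 and 429 bp, with gaps of 508 and 200 bp, and the authors' annotation also names Mir17hg, the host transcript of this microRNA cluster.

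**Figure D4:**
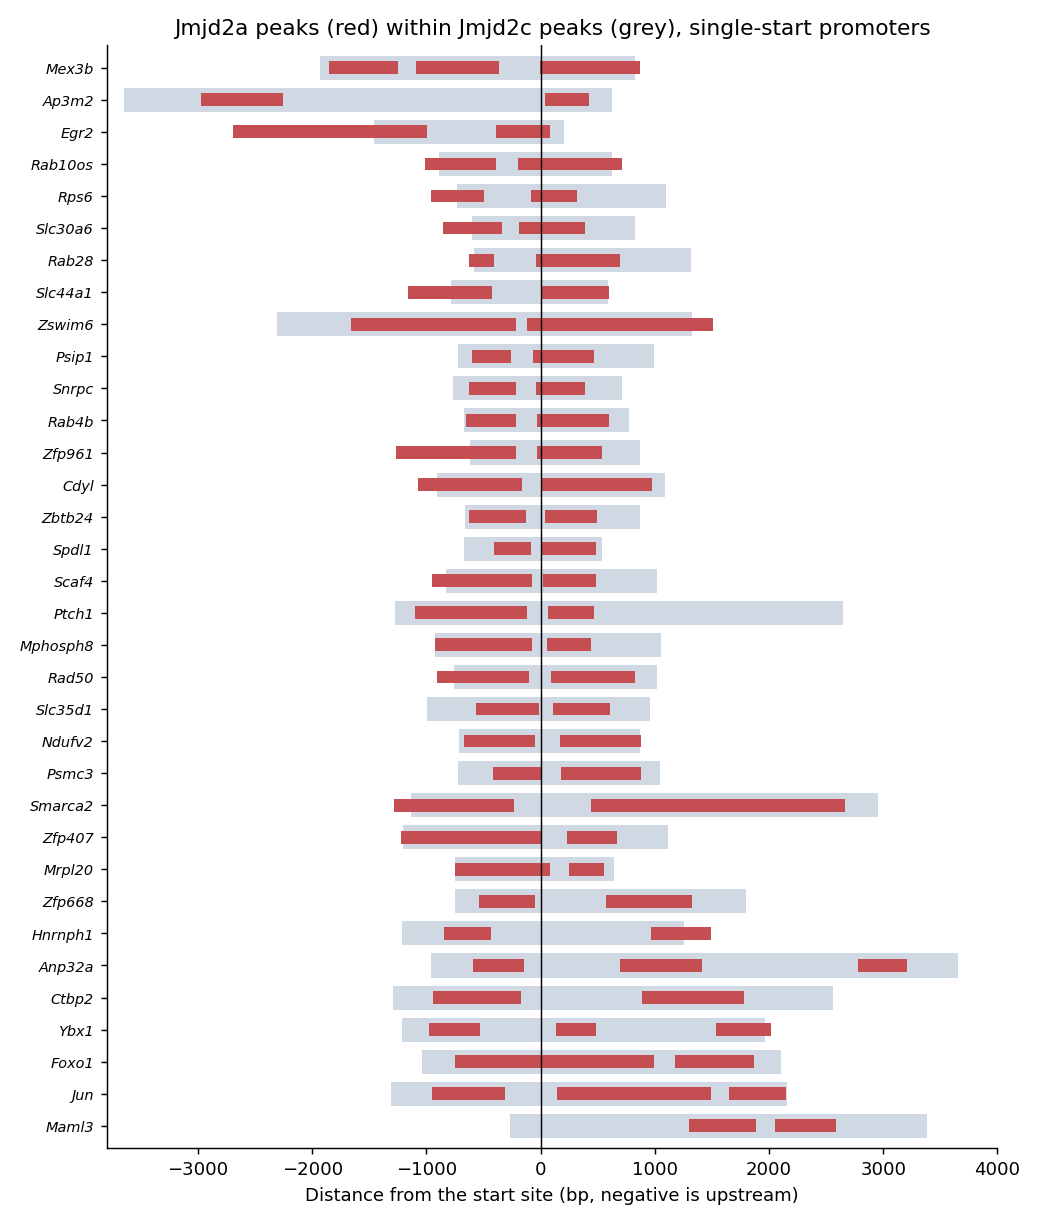
Jmjd2c peaks (grey) and Jmjd2a peaks (red) of 34 named promoters with a single start site, drawn to scale by distance in bp from that start (negative is upstream) and ordered by the centre of the gap between the peaks of lowest coordinates. The start lies in a gap in 18 and under a Jmjd2a peak in 15, the gap of Mphosph8 running from 71 bp before to 53 bp after it, while at Maml3 both Jmjd2a peaks lie inside the gene.

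The widest multi-peak promoters after Anp32a were those of the adaptor complex gene Ap3m2 (4275 bp), the SWI/SNF ATPase gene Smarca2 (4087 bp), Cramp1l with Ift140 (3951 bp), the Hedgehog receptor gene Ptch1 (3922 bp), the corepressor gene Ctbp2 (3847 bp), Cpeb2 (3707 bp) and the Notch coactivator gene Maml3 (3656 bp). Their Jmjd2a peaks did not fill them alike. At Smarca2 the peaks of 1050 and 2225 bp stood 675 bp apart and left the start uncovered, and at Ptch1 peaks of 403 and 983 bp stood 187 bp apart around the start. Ap3m2 had the longest gap of the set, 2299 bp between peaks of 386 and 716 bp, and Hnrnph1, a splicing regulator gene, had 1402 bp between peaks of 413 and 525 bp. At the other end, the gaps of Scaf4 and of the promoter shared by Slc11a2 and Gm5475 were 100 bp, and those of Spdl1, Zswim6 and the promoter shared by Tada2b and Ccdc96 were 101 bp.

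A few genes of lysine 9 and lysine 36 methylation were among the multi-peak promoters. Over all genes, 582 of the 9862 named at Jmjd2c promoter peaks (5.90%), and 9.29% of the 6268 that also had Jmjd2a, were named at one. In this list of writers and readers it was 3 of 29 genes with Jmjd2c (10.3%) and 3 of 19 with both (15.8%). With only 3 genes, these shares are not set apart from those of all genes. Cdyl, a chromodomain corepressor, had Jmjd2a peaks of 916 and 968 bp with a gap of 169 bp from 159 bp before to 9 bp after the start. Mphosph8, a subunit of the HUSH silencing complex, had 857 and 389 bp on the sides of its gap of 125 bp. Psip1, which binds lysine 36 methylation and is a partner of MLL, had 535 and 348 bp and a gap of 192 bp that ended 64 bp before the start. Of 23 histone demethylase genes with Jmjd2c 1 was included, the lysine 9 demethylase gene Kdm3a, with peaks of 796 and 512 bp and a gap of 128 bp. None of Kdm4a, Kdm4b, Kdm4c, Kdm4d, Il3ra, Hoxa9, Meis1 and Myc was named at a multi-peak promoter. How many of these genes had a Jmjd2c promoter peak is not given here. With so few genes and a share of 5.90% over all genes, their absence sets nothing apart.

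Other gene groups had similarly few, beside 5.90% of all genes with Jmjd2c and 9.29% of those with both proteins. Of the immediate early genes 2 of 13 with Jmjd2c were included, Jun and Egr2, the latter with peaks of 1700 and 479 bp that stood 600 bp apart. Of the developmental transcription factors it was 2 of 14, Foxo1 (1740 and 695 bp, gap 184 bp) and Foxd2 (1336 and 595 bp, gap 110 bp). DNA replication and cell-cycle genes gave 2 of 42, E2f1 with a gap of 137 bp and Orc1, which shares its promoter and a gap of 175 bp with the splicing gene Prpf38a. DNA damage response genes gave 2 of 28, the MRN complex gene Rad50, with peaks of 743 and 804 bp and a gap from 103 bp before to 88 bp after its start, and the checkpoint kinase gene Chek2, which shares with Hscb peaks of 501 and 392 bp that stood 834 bp apart. Splicing factors gave 3 of 41 (Prpf38a, Snrpc and Srsf11), Notch and Wnt genes 1 of 16 (Rbpj, gap 474 bp) and MLL fusion targets 1 of 20 (Cpeb2, gap 627 bp). In the order given, these are 15.4%, 14.3%, 4.76%, 7.14%, 7.32%, 6.25% and 5% of the genes with Jmjd2c. Genes with both proteins numbered 10, 13, 25, 18, 18, 11 and 9. The counts are too small to set any of these lists apart from all genes.

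Gene families gave shares from 1.96% to 6.67%, beside 5.90% of all genes. Zinc finger genes of the Zfp series gave 12 of 289 (4.15%), solute carriers 7 of 159 (4.40%), respiratory chain genes 4 of 86 (4.65%), mitochondrial ribosomal proteins 3 of 74 (4.05%), proteasome genes 3 of 45 (6.67%), Rab genes 3 of 49 (6.12%, with the noncoding Rab10os matched by name), cytosolic ribosomal proteins 1 of 51 (Rps6, 1.96%) and Zbtb genes 1 of 35 (Zbtb24, 2.86%). No promoter was included from 25 interleukin-3 receptor and JAK-STAT5 genes with Jmjd2c, of which 17 had both proteins, from 23 apoptosis genes, of which 9 had both, or from 14 progenitor factors and receptors, of which 2 had both. Granulocyte and macrophage genes and markers of other lineages each had 1 gene with Jmjd2c and none of this kind. With counts this small, none of these shares is set apart from that of all genes.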

How the data were processed

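The authors deposited positions in bp of Jmjd2a and Jmjd2c peaks with a distance to the nearest start site, per the file headers, and 6940 start-site windows bound by both. Bowtie 0.12.7, SAMtools, bedtools 2.25.0 and mm10 are named in the submitters' processing notes. The sources used here name no peak caller, threshold or pooling, and no depth or score can be read from the lists, so weak sites may be missing and a weak dip may split a peak.

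Positions were read as half-open from 0 and are printed counting from 1. Start sites were those named in the files, with strands from the window table or RefSeq. Promoter windows came from RefSeq (GRCm38.p6), and all 582 genes named at the multi-peak promoters matched RefSeq. Names that had turned into dates, at 2 promoters, were read through accessions. Named genes are the promoters with 3 Jmjd2a peaks, the 8 widest, the 5 largest and 5 smallest gaps and up to 4 of each gene list by summed Jmjd2a width. Of these, 1 promoter with 3 Jmjd2a peaks is not reported here. Promoters and lists were chosen with earlier results of these data known, and no p-value is given. On simulated data the overlap step returned the planted number of partners for all 10521 peaks. Python 3.11.15, numpy 2.4.6, pandas 2.3.3, scipy 1.17.1 and matplotlib 3.10.9 were used.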

Additional observations from a re-analysis of the deposited data

How the results depend on the processing

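The number of multi-peak promoters and 4 values over them were recomputed under 5 alternatives, and 18 of the 25 values stayed within 1.5 times the count or within the 95% interval of the value reported. Among them are all values for at least 50% of the Jmjd2a peak inside, a 500 bp limit and Jmjd2c peaks over a start. Those settings kept 437, 461 and 457 of the 463 promoters, so their values had little room to move. With the wider 50% of the Jmjd2a list, 49 promoters held several peaks in place of 463, 40.8% of them covered start sites of 2 or more genes in place of 25.5%, and their median width was 2190 bp in place of 1850 bp. Joining Jmjd2a peaks closer than 200 bp removes every shorter gap, so fewer promoters and a longer median gap follow by construction. It left 190 promoters, with a median gap of 312 bp in place of 182.5 bp and a median width of 1950.5 bp. A start site lay in a gap in 56.8% of them in place of 45.8%, and longer gaps have more room for a start. How many promoters count as multi-peak thus depends on how close neighbouring calls are kept apart and on how narrow a call is accepted. Depth limits every count to an unknown extent. No paired analysis was possible because the lists carry no value per library.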

Other observations

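The reverse arrangement was rare: 11 of 6908 Jmjd2a promoter peaks (0.159%, 0.0795 to 0.285) held 2 or more Jmjd2c peaks. Jmjd2a peaks have less room for several, with a median width of 706 bp over their whole list. Jmjd2c promoter peaks with 1 Jmjd2a peak had a median of 1394 bp. The part of width in this share was not tested. Mllt3, the gene of the AF9 partner in the fusion that transformed these cells, was a multi-peak promoter and was picked after its values were seen. Its Jmjd2a peaks spanned 382 and 675 bp (chromosome 4, 88032970 to 88033351 and 88033477 to 88034151), and the gap of 125 bp ran from 69 bp before to 55 bp after the start, under a Jmjd2c peak of 1806 bp. Multi-peak promoters were found on 20 of the 21 chromosomes with Jmjd2c promoter peaks. Their share of those peaks ran from 8.06% on chromosome 3 (34 of 422) and 7.94% on chromosome 4 (47 of 592) to 2.70% on chromosome 19 (9 of 333) and 1.82% on X (5 of 275), and was 0 of 4 on Y. On X, 83 of the 275 Jmjd2c promoter peaks met any Jmjd2a peak. Of the 582 genes named at the multi-peak promoters 550 were protein-coding, 24 long noncoding and 8 microRNA genes.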
